A study of Mus musculus with 183 samples.

Results

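The mRNAs described here come from 8 mouse genes that are switched on by Wnt signaling or that feed back on it: Notum, Axin2, Sp5, Lef1, Nkd1, T, Cdx1 and Cdx2. They are 8 of the 53380 genes in the half-life count table. The 8 were picked by name with their levels in mock-treated libraries and their half-lives by clone and day already known from these data, so these levels, half-lives and the contrasts made from them are a description. No p-value is given for any of the 8, and counts of how many were called (adjusted p under 0.05 in a fit over all genes) only describe them beside the share of all genes called. All 8 had a row in the count table and passed the filter on low counts in each comparison.

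The study asked which transcripts are degraded by which RNA decay pathway in mouse embryonic stem cells (mESCs), and what the Ski complex helicase SKIV2L and its partner AVEN contribute. SKIV2L feeds RNA to the cytoplasmic exosome, which digests it from the 3′ end. The values below come from 47 libraries of rRNA-depleted RNA, made with a kit that does not mark strand and counted per gene, from cells that were mock treated with DMSO or treated with actinomycin D (ActD), which stops transcription, for 120, 240 or 360 min. Cells were kept in serum with LIF. Clone 5F carried Cre-ERT2 at 1 Rosa26 allele and floxed Skiv2l (labelled Rosa26Cre-ERT2/- and Skiv2lfl/fl), with AVEN intact. Clone 7E lacked AVEN (Aven-/-), carried Rosa26Cre-ERT2/BirA-V6 and had both Skiv2l copies tagged (Skiv2l3xFLAG-Avi/3xFLAG-Avi). The labels of its half-life libraries do not list the floxed Skiv2l allele, which the labels of its other RNA-seq libraries do. Each genotype is 1 clone, so AVEN, the tag, the Rosa26 allele and the clone cannot be told apart, and neither can the level of Skiv2l, which differed between the clones before 4OHT. Day 4 libraries came from cells given 0.1 µM 4-hydroxytamoxifen (4OHT), which activates Cre-ERT2, for 4 days, and day 0 libraries from cells without it. No 4OHT-treated cells without floxed Skiv2l were part of the half-life libraries, so 4OHT and the deletion cannot be told apart. Each clone, day and time point had 3 libraries, apart from clone 5F at day 0 and 120 min, which had 2 here. They are technical replicates. All p-values below therefore measure the spread between such libraries.

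Libraries held 24540658 to 34208466 counts, a range narrow enough that depth differed little between groups. The normalized Skiv2l count summed over the whole gene was 4136 to 4205 in the 3 mock libraries of clone 5F at day 0 and 3825 to 4415 in those labelled day 4, a log2 fold change of −0.01 ± 0.05 (SE, edgeR adjusted p = 0.914). A transcript that lacks only the floxed exons still adds to that sum, so it is no check of the deletion. In clone 7E the same count was 903 to 1038 at day 0 and 368 to 406 at day 4 (−1.32 ± 0.07, edgeR adjusted p = 7.8e-13). Skiv2l was thus lower in 7E than in 5F already at day 0, by a log2 difference of −2.10 ± 0.06 (edgeR adjusted p = 3.8e-18). Aven was at 929 to 1023 normalized counts in the 5F libraries of day 0 and day 4 and at 38.5 to 86.0 in those of 7E. All 14 naive pluripotency markers had a mean of at least 1 RPKM in each clone and day.

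Wnt ligands bind Frizzled and LRP receptors and halt the destruction complex of Axin, APC, GSK3 and casein kinase, so that beta-catenin accumulates, enters the nucleus and joins TCF and LEF factors on DNA. Several genes that this switches on restrain the signal again: NOTUM is a secreted enzyme that removes the lipid from Wnt proteins, AXIN2 is a scaffold of the destruction complex, and NKD1 binds Dishevelled. LEF1 is itself a partner of beta-catenin, SP5 is a zinc finger repressor, and T (Brachyury), CDX1 and CDX2 are transcription factors of the primitive streak, the posterior embryo and, for CDX2, the trophectoderm. In mESCs, Wnt activity helps to hold the naive state and also primes mesodermal genes.

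TCF and LEF factors read a short DNA core, CTTTGA on 1 strand and TCAAAG on the other. Promoter windows (250 bases before to 50 after an annotated start, RefSeq, GRCm38.p6) were at hand for 6 of the 8 genes, Axin2, Sp5, Lef1, Nkd1, T and Cdx2, in 9 windows because Lef1 has several starts. The core lay in 3 of the 9. Among all 32851 windows of the table, 16.0% held it on either strand. The windows that held it are printed in the direction of transcription, with the core in capitals, because they show where the shared motif sits in Sp5 and T and in an internal start of Lef1. In this direction TCAAAG is the same core on the opposite strand.
Sp5, chr2:70474673-70474972 (plus strand): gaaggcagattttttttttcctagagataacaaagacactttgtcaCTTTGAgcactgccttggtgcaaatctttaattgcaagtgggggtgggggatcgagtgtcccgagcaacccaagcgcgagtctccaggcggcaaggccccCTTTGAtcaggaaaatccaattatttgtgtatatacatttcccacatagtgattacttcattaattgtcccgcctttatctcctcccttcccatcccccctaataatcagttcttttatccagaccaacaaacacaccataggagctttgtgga
Lef1 internal start, chr3:131156044-131156343 (plus strand): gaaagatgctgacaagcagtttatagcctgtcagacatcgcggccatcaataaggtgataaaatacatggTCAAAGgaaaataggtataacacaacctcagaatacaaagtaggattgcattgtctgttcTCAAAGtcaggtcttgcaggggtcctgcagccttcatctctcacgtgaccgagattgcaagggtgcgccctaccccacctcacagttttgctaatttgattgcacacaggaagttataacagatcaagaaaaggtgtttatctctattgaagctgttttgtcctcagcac
T, chr17:8434173-8434472 (plus strand): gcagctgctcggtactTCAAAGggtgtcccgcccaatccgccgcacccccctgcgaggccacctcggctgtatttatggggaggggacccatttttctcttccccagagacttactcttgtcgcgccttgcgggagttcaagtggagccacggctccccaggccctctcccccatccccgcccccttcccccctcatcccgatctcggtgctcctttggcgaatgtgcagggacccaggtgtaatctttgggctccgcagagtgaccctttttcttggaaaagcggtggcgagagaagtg
Counted from the start, the cores began at −204 and −104 in Sp5, at −180 and −120 in the internal Lef1 window and at −234 in T. The windows of Axin2, Nkd1 and Cdx2 and the other 3 of Lef1 held none. A match is only a run of letters, and no match says nothing about enhancers or introns outside the windows.

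Of the 8 genes only Notum and Axin2 share a chromosome, 11 (GRCm38, Gencode M21). Notum spans 120653788 to 120661175 on the minus strand and Axin2 108920349 to 108950783 on the plus strand. Antisense genes overlap the exons of 3 of the 8: Notumos covers 708 and Myadml2os 210 of the 2408 exonic bases of Notum, Gm11670 covers 209 of the 5506 of Axin2, and Gm43352 covers 1208 of the 8788 of Lef1. The labels name the TruSeq v2 kit, which does not mark strand, so reads from those stretches cannot be assigned to the sense gene with certainty. The other 5 have no exonic overlap with another annotated gene.

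Notum, the secreted Wnt deacylase, was the most abundant of the 8 in every clone and day. Per length, in RPKM (reads per kilobase of exon, scaled to library total), it was at 6.26 ± 0.49 (SD, n = 3) in clone 5F at day 0, 6.07 ± 0.66 in the 5F libraries labelled day 4, 7.00 ± 0.18 in 7E at day 0 and 5.24 ± 0.53 in 7E at day 4. These levels were above 62.8% to 66.8% of the protein-coding genes detected. The length used merges all annotated exons of a gene. It is 8788 bases for Lef1 and 4558 for Nkd1, whose principal transcripts have 3482 and 3035. For Sp5 both are 2100 bases. The ranks of Lef1, Sp5 and Nkd1 therefore depend on the length used. By merged exons Sp5 came next in all 4 groups, at 0.785 to 1.80 RPKM on average, and every Notum library was above every Sp5 library. Below Sp5 the order depended on the clone. In 5F at day 0 it ran Axin2 (0.984 RPKM), Lef1 (0.775), T (0.499), Cdx1 (0.471), Cdx2 (0.441) and Nkd1 (0.195). Of these, the ranges of Sp5 and Axin2, of T and Cdx1, and of Cdx1 and Cdx2 overlapped. In 7E at day 0 Lef1 stood last by merged exons, at 0.197 RPKM, below Nkd1 at 0.233. The neighbours from Axin2 (0.477) through Cdx1, T and Cdx2 to Nkd1 overlapped. In 7E at day 4 Cdx1, a homeobox factor of the posterior embryo, stood next after Sp5 at 1.20 RPKM, above Axin2 at 0.855, and T stood last at 0.189. Nkd1 and the 3 mesodermal or posterior factors gave so few reads, at means of 25.5 to 37.8 raw counts over the 12 mock libraries, that differences of moderate size lie within their spread.

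In clone 5F the mock levels of the 8 genes overlapped between day 0 and the libraries labelled day 4 without exception. Notum gave 400, 461 and 415 normalized counts at day 0 and 429, 374 and 465 at day 4 (log2 fold change −0.01 ± 0.09, SE). Axin2 gave 135, 160 and 163 and then 137, 155 and 152 (−0.05 ± 0.12). Lef1 gave 197, 197 and 183 and then 177, 189 and 204 (−0.02 ± 0.10). The means of these 3 genes moved by less than the SD of either group. Sp5 went from 67.4, 75.7 and 61.3 to 84.7, 71.9 and 90.3 normalized counts (0.27 ± 0.16), with 1 day 4 library inside the day 0 range. Nkd1 went from 18.1, 24.7 and 32.7 to 23.9, 22.2 and 39.0 (0.18 ± 0.28). T was at 43.3, 28.0 and 26.6 and then at 34.9, 31.7 and 42.1 (0.16 ± 0.24), and the day 4 values lay within the day 0 range. Cdx2 was at 29.2, 29.6 and 25.5 and then at 26.9, 28.5 and 21.6 (−0.14 ± 0.24). Cdx1 was the only 1 of the 8 called in the edgeR fit over all genes, at 20.1, 31.3 and 18.4 normalized counts at day 0 and 32.9, 30.7 and 65.7 at day 4 (0.86 ± 0.29). That call rested on replicate 3 of day 4: without replicate 3 the difference was 0.28 and was not called, and it was not called without replicate 1 (0.93) or by DESeq2 (0.88). Over all 16349 genes tested, 12.8% were called higher and 11.6% lower, beside 1 and 0 of the 8.

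**Figure D1:**
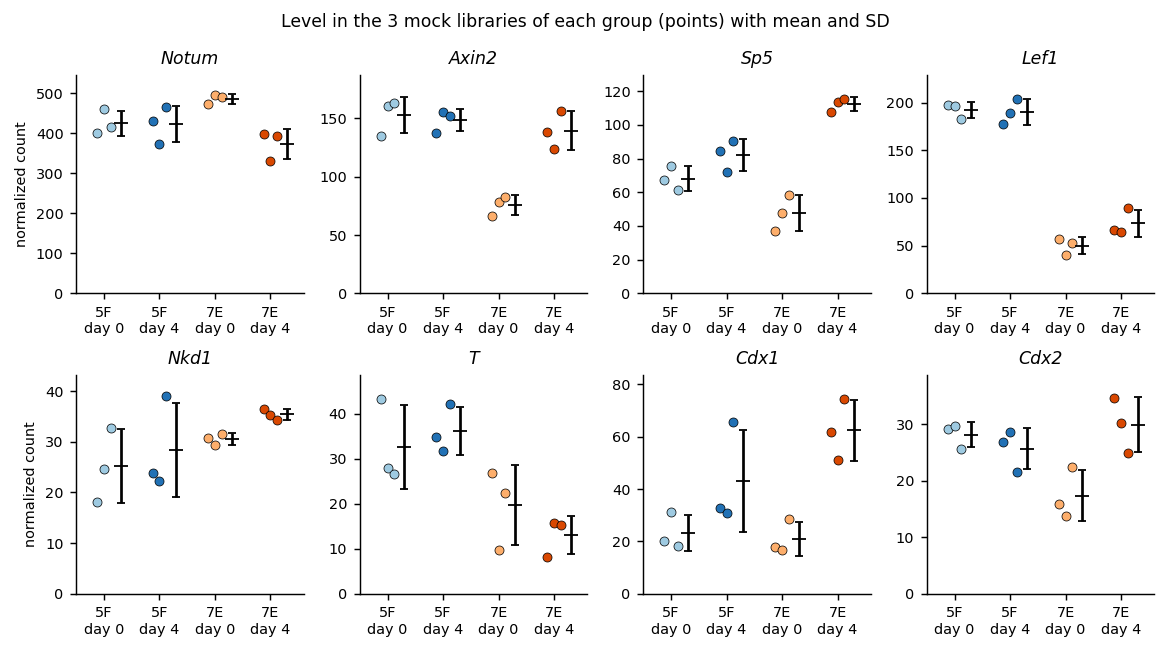
Level of each of the 8 mRNAs in the mock libraries, as normalized counts (linear axis from 0), with 1 point per library and the mean and SD of the 3 libraries beside the points. In clone 7E the day 4 points of Axin2, Sp5, Lef1, Nkd1, Cdx1 and Cdx2 sit above all day 0 points and those of Notum below. These are counts scaled within time points, and Nkd1 was not called. Scaled by each library's own ERCC counts, Axin2, Lef1, Nkd1 and Cdx2 had lower means at day 4. In clone 5F the day 0 and day 4 points overlap for all 8 genes.

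For clone 7E, which lacks AVEN, the mock levels at day 0 and day 4 are given gene by gene, on counts scaled within time points. How many of all genes had day 4 libraries apart from those of day 0 was not counted. Notum went down, from 473, 495 and 490 to 397, 331 and 393 normalized counts, and every day 4 library was below every day 0 library. Axin2, the destruction complex scaffold, went from 66.5, 78.2 and 82.6 to 138, 124 and 157 normalized counts. The day 4 values overlapped those of clone 5F, where Axin2 stood at 135 to 163 over both days, though the lowest was below them. Sp5, the repressor, went from 36.7, 47.9 and 58.1 to 108, 114 and 116 normalized counts, above all 6 mock libraries of clone 5F. Lef1 went from 56.6, 40.1 and 53.05 to 66.1, 64.6 and 89.7, and stayed below all 5F libraries. Nkd1, the Dishevelled binder, went from 30.8, 29.3 and 31.6 to 36.6, 35.4 and 34.4, a small step between tight groups. Cdx1 went from 17.9, 16.6 and 28.6 to 62.0, 51.02 and 74.5, and Cdx2 from 15.9, 13.7 and 22.4 to 34.6, 30.2 and 24.8. T did not follow the pair of homeobox genes: it was at 26.8, 9.77 and 22.4 at day 0 and at 8.13, 15.6 and 15.3 at day 4, with overlapping groups.

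On the log2 scale these differences in 7E were 0.88 ± 0.14 (SE) for Axin2, 1.24 ± 0.17 for Sp5, 0.56 ± 0.19 for Lef1, 1.58 ± 0.24 for Cdx1, 0.78 ± 0.28 for Cdx2, −0.38 ± 0.08 for Notum, 0.21 ± 0.22 for Nkd1 and −0.59 ± 0.37 for T, and with each library scaled by its own ERCC spike-in counts they were −0.21, 0.14, −0.53, 0.48, −0.31, −1.47, −0.88 and −1.67. In the edgeR fit over all 16333 genes, 5 of the 8 were called higher (Axin2, Sp5, Lef1, Cdx1 and Cdx2) and 1 lower (Notum), where 20.7% of all genes were called higher and 19.4% lower. Under the ERCC scaling 0 of the 8 were called higher and 4 lower (Notum, Lef1, Nkd1 and T). There 259 of the 16333 genes were called higher and 14717 lower. Scaled within time points, the median of the 8 was 0.67 and that of all genes −0.01. DESeq2 called 3 of the 8 higher, without Lef1 (0.56) and Cdx2 (0.79). Cdx2 was also not called without replicate 1 (0.61) or replicate 2 (0.63), nor Lef1 without replicate 2 (0.51) or replicate 3 (0.44). T was called lower without replicate 2 (−1.06).

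The 2 scalings differ because the 7E libraries of day 4 held an amount of ERCC counts equal to 0.642% to 0.662% of the gene counts, against 0.310% to 0.320% in 7E at day 0, 0.276% to 0.300% in 5F at day 0 and 0.284% to 0.309% in the 5F libraries labelled day 4. The spike-in was added with the lysis buffer to each well, and fewer cells in a well cannot be told apart from less RNA per cell. Scaling by ERCC moved the median log2 difference of all genes by −1.10 in 7E and by −0.07 in 5F. In RNA from a whole culture, a lower share of cells of 1 type cannot be told apart from a lower level in each.

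**Figure D2:**
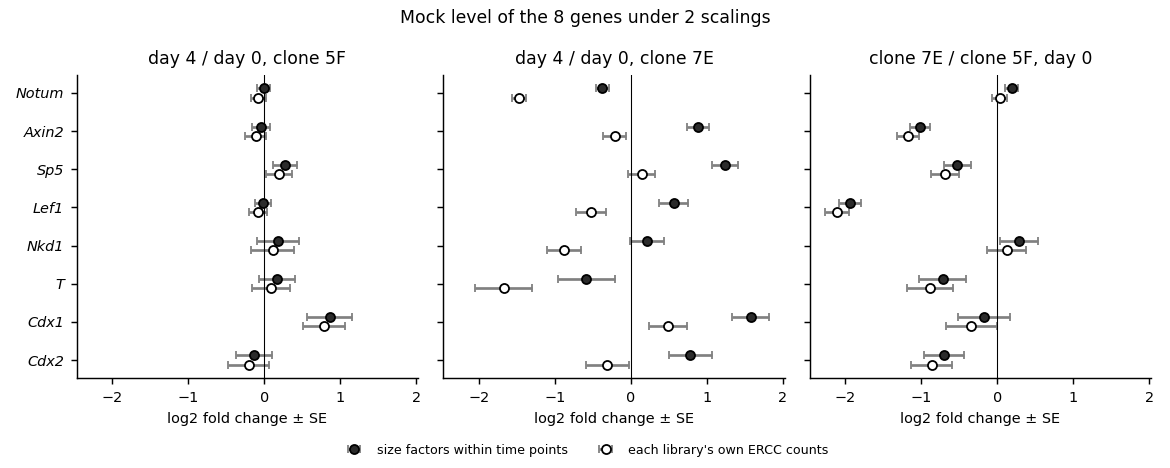
Log2 fold change of the mock level of each gene with its SE (x axis) between day 4 and day 0 in clone 5F, between day 4 and day 0 in clone 7E, and between the clones at day 0, with filled points for size factors within time points and open points for each library's own ERCC counts. In clone 7E Axin2 is at 0.88 on the first scale and at −0.21 on the second and Sp5 at 1.24 and 0.14, while the median of all genes moves by −0.07 in the panel of clone 5F and by −0.16 in that of the clones at day 0.

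Markers of other cell types differed between day 4 and day 0 in 7E, in directions that depended on the list. Calls and sums here are not scaled by ERCC counts, which moved the median of all genes by −1.10 in 7E. Of all genes 20.7% were called higher and 19.4% lower in 7E, and 12.8% and 11.6% in 5F. Of the trophectoderm markers, 10 of the 11 tested were called higher in 7E at day 4 (median log2 difference 1.46) and 0 lower, and their summed level went from 74.2 to 74.9 RPKM at day 0 to 162 to 185 RPKM at day 4. In 5F the sum was 101 to 111 RPKM at day 0 and 111 to 131 RPKM in the libraries labelled day 4, with 3 of 11 called higher. The keratins Krt8 and Krt18 made up most of the sum, and Elf5, a defining factor of the lineage together with Cdx2, stayed at 0 to 2 counts in 7E at day 4. Of the primitive streak markers, 4 of 7 tested were called higher in 7E, with sums of 2.94 to 3.57 RPKM at day 0 and 4.26 to 4.84 RPKM at day 4, and Msgn1 was at 0 counts in all 6 mock libraries of 7E. Of the 14 naive pluripotency markers, 10 were called lower and 1 higher in 7E at day 4, with sums of 1409 to 1463 RPKM at day 0 and 1223 to 1259 RPKM at day 4, and in 5F 5 were called higher and 2 lower. Both differentiation lists hold Eomes and Hand1, and Wnt3 and Ascl2 are also in the Wnt lists used below. The part of such cells in the levels of Axin2, Sp5, Lef1, Cdx1 and Cdx2 was not tested. Of the primed epiblast markers, 2 of 6 were called higher and 3 lower in 7E at day 4. Neuroectoderm markers gave 0 higher and 2 lower of the 3 tested. Of the primitive endoderm markers, 4 of 9 were called higher and 0 lower in 7E at day 4, with sums of 33.5 to 34.1 RPKM at day 0 and 49.1 to 56.0 RPKM at day 4. They also differed between the clones at day 0, with 9 of 9 called lower in 7E, beside 18.1% of all genes, and sums of 162 to 167 RPKM in 5F. Their part in the differences of the 8 genes was not tested.

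Before 4OHT, 4 of the 8 mRNAs were called lower in clone 7E than in clone 5F in the fit over all 12 mock libraries. Lef1 differed most, at a mean of 49.9 ± 8.70 normalized counts (SD, n = 3) in 7E and 192 ± 8.11 in 5F, which is 0.26 of the 5F level (log2 difference −1.95 ± 0.14, SE). Axin2 was at 75.8 ± 8.32 in 7E and 153 ± 15.7 in 5F (−1.01 ± 0.13). Sp5 was at 47.6 ± 10.7 and 68.1 ± 7.22 (−0.53 ± 0.17), and Cdx2 differed by −0.70 ± 0.26. All 4 had every 7E library below every 5F library. Lef1 and Axin2 were called under each alternative tried, while Sp5 was not called without replicate 1 (−0.38) or replicate 2 (−0.44), and Cdx2 was not called without replicate 1 (−0.62), without replicate 2 (−0.51) or by DESeq2 (−0.70) or with every gene of at least 1 count tested. Notum lay the other way, with all 3 libraries of 7E above those of 5F (0.19 ± 0.09), and was called only without replicate 2 (0.24). The differences of T (−0.72 ± 0.31), Cdx1 (−0.18 ± 0.34) and Nkd1 (0.28 ± 0.25) were not called, although T was with every gene of at least 1 count tested (−0.72). Of all 17209 genes, 18.1% were called higher and 18.1% lower, beside 0 and 4 of the 8. ERCC scaling shifted the median of all genes by −0.16 here and called T lower as well (−0.89), with 1574 of all genes called higher and 6268 lower.

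At day 4, 1 of the 8 was called higher and 2 lower in 7E than in 5F on counts scaled within time points. Lef1 (−1.37 ± 0.14) and T (−1.47 ± 0.33) were called lower in 7E than in the 5F libraries labelled day 4, and Sp5 was called higher at 0.45 ± 0.15 but had a difference of −0.74 under ERCC scaling. Axin2 was at −0.08 ± 0.12, with overlapping groups. Without replicate 1 (0.50) or replicate 2 (0.35) Sp5 was not called. Across all genes 20.3% were called higher and 20.0% lower. ERCC scaling moved the median by −1.19 so that all 8 genes were called lower, as were 15949 of all 17209 genes. The day 4 differences of the clones themselves differed for Axin2 (0.93 ± 0.18, larger in 7E) and Sp5 (0.97 ± 0.23), and these became −0.10 and −0.052 under ERCC scaling. Sp5 was not called there without replicate 1 (0.88) or replicate 2 (0.79). Of all genes 6.65% were called for a larger and 5.29% for a smaller difference in 7E. Cdx2 (0.92 ± 0.36), T (−0.75 ± 0.46), Cdx1 (0.72 ± 0.42) and Lef1 (0.58 ± 0.20) were not called, although Cdx1 was without replicate 3 (1.43). Notum (−0.37 ± 0.12) was called only without replicate 2 (−0.42), with every gene of at least 1 count tested (−0.37) and under ERCC scaling (−1.39), where Nkd1 (−0.99) and T (−1.76) were called too. Under that scaling 14319 of all 17209 genes were called for a smaller difference in 7E and 54 for a larger one. Each of these comparisons shares libraries with others, since the same day 0 libraries serve the clone and the day contrasts.

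After ActD the half-lives are described as those of a fast pair, a middle group and a slow pair, an order that held in both 5F groups and in 7E at day 0, while in 7E at day 4 Notum and T of the middle group were as slow as Nkd1 of the slow pair. Half-lives came from a straight line through ln(normalized count + 1) against hours of ActD, over all 4 time points. The medians over protein-coding genes with a mean of at least 50 counts were 281 min in 5F at day 0 (11560 genes), 282 min in the 5F libraries labelled day 4, 281 min in 7E at day 0 and 281 min in 7E at day 4. Their likeness follows from the scaling, since all groups were scaled to each other at each time point and shared its spike-in factor. The medians therefore cannot show whether overall decay differed between the groups. Axin2 and Sp5 were the fast pair. The half-life of Axin2 was 96.4 min in 5F at day 0, 113 min in 5F at day 4, 111 min in 7E at day 0 and 98.1 min in 7E at day 4. That of Sp5 was 101, 86.2, 103 and 86.1 min in the same order. Their decay rates, 0.37 to 0.43 per hour for Axin2 and 0.40 to 0.48 per hour for Sp5, exceeded those of 92.0% to 98.7% of the genes. The rate of Sp5 was higher at day 4 in both clones, but its SE of 0.03 to 0.05 per hour is near the size of the step.

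Most of the Axin2 and Sp5 loss came early, a shape that the median gene shared. After 120 min of ActD, Axin2 was at 20.0% ± 3.75 (SD, n = 2) of its mock mean in 5F at day 0, 20.7% ± 7.95 (n = 3) in 5F at day 4, 19.5% ± 2.56 in 7E at day 0 and 31.6% ± 4.36 in 7E at day 4, where the median gene was at 58.4% to 59.6%. Sp5 was at 19.1% ± 2.03, 25.2% ± 3.64, 30.6% ± 8.17 and 16.8% ± 4.27. In 5F at day 0 the means give an Axin2 half-life of 51.7 min between mock and 120 min and of 153 min between 120 and 360 min. The median gene of that group was at 59.6% at 120 min and at 40.3% at 360 min, so it too lost more before 120 min than after. Leaving out the 360 min libraries raised the Axin2 rate in 5F at day 0 from 0.43 to 0.56 per hour. By 360 min Sp5 was down to 5 to 16 raw counts in a library and Axin2 to 10 to 35.

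**Figure D3:**
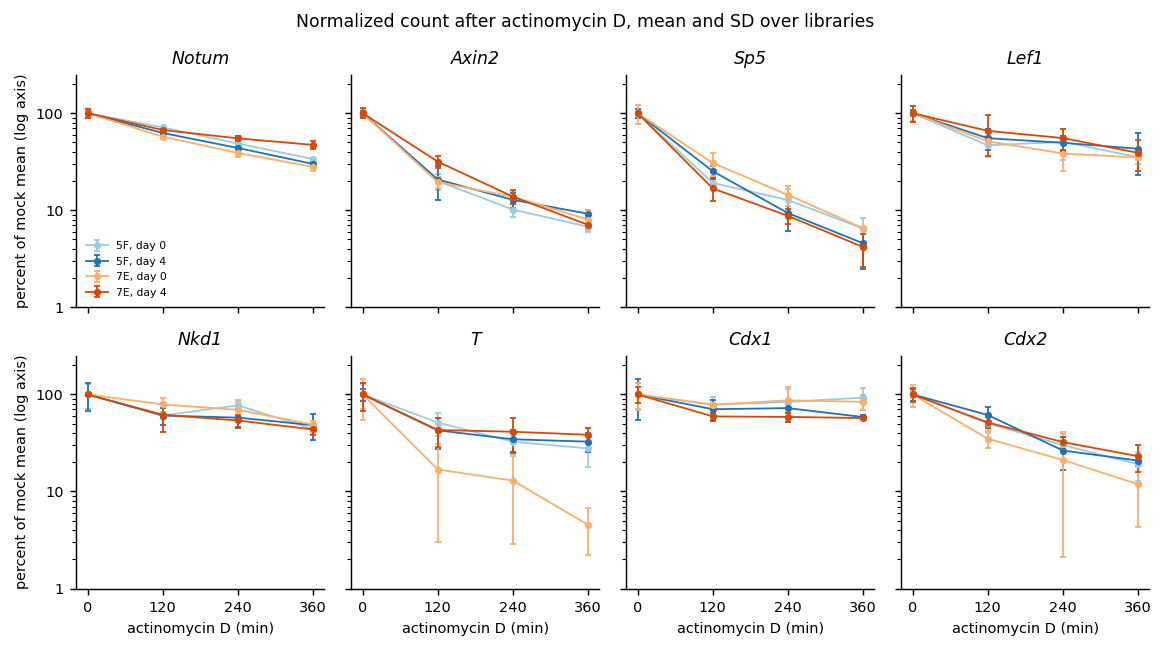
Normalized count of each mRNA as a percent of its mock mean (log axis) against time in ActD (min), with the mean and SD over 3 libraries (2 for clone 5F, day 0, 120 min). Axin2 and Sp5 are at 16.8% to 31.6% at 120 min in all 4 groups, and Cdx1 stays at 57.1% or more throughout. The ActD points of T in clone 7E at day 0 rest on 1 to 9 raw counts.

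The middle group held Notum, Lef1, Cdx2 and T. Cdx2 had half-lives of 161 min in 5F at day 0, 164 min in 5F at day 4, 136 min in 7E at day 0 and 182 min in 7E at day 4, and its rate was above that of 77.9% to 87.4% of the genes. Lef1 had 263, 291, 249 and 281 min, close to the median gene in each group. T had 202 and 245 min in 5F. In 7E it had 116 min at day 0, from ActD libraries of 1 to 9 raw counts, and 332 min at day 4, so the 7E values say little. Notum had 230 min in 5F at day 0, 211 min in 5F at day 4 and 197 min in 7E at day 0, but 340 min in 7E at day 4.

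The slow pair was Nkd1 and Cdx1. Nkd1 had half-lives of 396, 392, 379 and 332 min in 5F at day 0, 5F at day 4, 7E at day 0 and 7E at day 4, with rates of 0.10 to 0.13 per hour. At day 0 the rate of Cdx1 was 0.011 ± 0.036 per hour (SE) in 5F and 0.020 ± 0.030 per hour in 7E, both within 1 SE of no decay, and 92.7% ± 23.1 and 83.8% ± 14.7 of the mock mean were left at 360 min, where the median gene of 5F had 40.3%. In 5F the Cdx1 rate without replicate 2 was −0.046 per hour and in 7E it was −0.011 per hour without replicate 3. At day 4 it was 0.07 ± 0.03 per hour in 5F and 0.08 ± 0.02 per hour in 7E, for half-lives of 619 and 511 min. Cdx1 had 17 to 86 raw counts in a library over both clones.

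**Figure D4:**
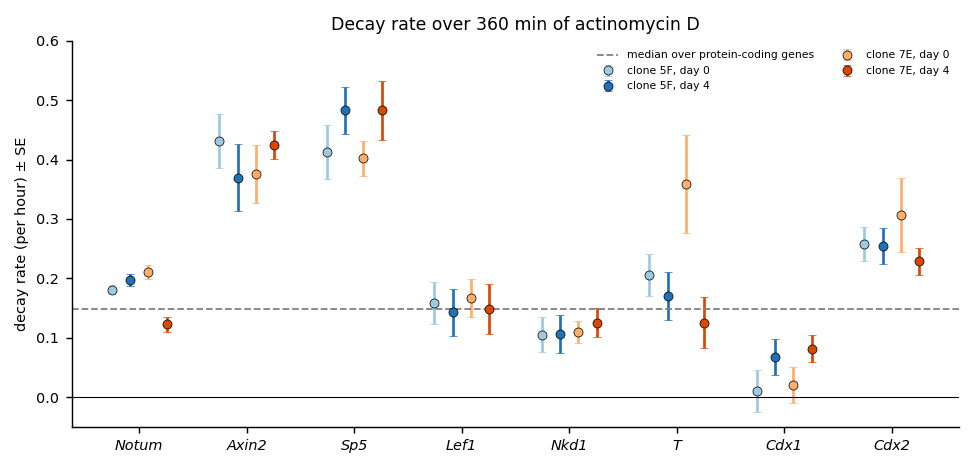
Decay rate per hour with its SE for each mRNA in each clone and day, and the median rate over protein-coding genes (dashed line). Axin2 and Sp5 lie between 0.37 and 0.48 per hour in all 4 groups, Lef1 lies at the median, and the day 4 point of Notum in clone 7E (0.12 per hour) lies below its other 3 points.

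The decay rates of the 8 were compared between day 4 and day 0 by the time by day term of the edgeR fit, in log2 units per hour, where a positive value means slower loss at day 4. In 5F 0 of the 8 were called in either direction by edgeR or DESeq2, and 0 had an unadjusted p under 0.05. The differences ran from −0.10 ± 0.07 for Cdx1 to 0.09 ± 0.09 for Axin2. Across 17901 genes 0.134% were called slower and 0.067% faster. In 7E Notum was called slower at day 4, by 0.13 ± 0.03 log2 units per hour, where 0.436% of 17417 genes were called slower and 0.551% faster. At 360 min 47.1% ± 4.53 of the mock mean of Notum was left at day 4 (SD, n = 3) and 27.9% ± 2.57 at day 0, and as a percent of the mock mean the libraries of the 2 days did not overlap at 240 or 360 min. The Notum call did not hold without replicate 1 (0.16), replicate 2 (0.08) or replicate 3 (0.14), without the 360 min libraries (0.13), or with every gene of at least 1 count tested (0.13), and it held under ERCC scaling (0.15) and DESeq2. The mock level of Notum was at the same time lower at day 4. T had a larger difference, 0.52 ± 0.14, on 1 to 15 raw counts in the ActD libraries, and was not called. Between the clones at day 0, 0 of the 8 were called by edgeR or DESeq2, with 0.0338% of 17766 genes called slower in 7E and 0.00563% faster. An unadjusted p under 0.05 came out for 1 of the 8, and the share of all genes at that looser threshold is not given.

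Many unstable mRNAs carry the AU-rich pentamer ATTTA in their 3′ UTR. Its letters, searched on the sense strand, occurred 2 times in the 560 bases of the Sp5 3′ UTR and 3 times each in those of Axin2 (1388 bases), Lef1 (1287) and Nkd1 (1466), so Sp5 had 3.57 and Axin2 2.16 per kilobase and the slower Lef1 and Nkd1 2.33 and 2.05. Cdx1 had 1 in 864 bases. Notum (432 bases), T (627) and Cdx2 (1037) had none. Over 19724 genes with a 3′ UTR of at least 30 bases the median was 1.07 per kilobase, and 60.7% had at least 1.

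Binding by the decay factors could not be given for the 8 genes: none of them is among the 7240 mRNAs of the table of relative CRAC (crosslinking and analysis of cDNA) signal. Of 98 other Wnt pathway genes in 6 lists, 38 are. The authors' pooled share of SKIV2L signal had a median of 0.181 over these 38 and of 0.267 over all mRNAs, with 8 of 38 above the latter. For XRN1, the 5′ to 3′ exonuclease, the medians were 0.409 and 0.337, with 28 of 38 above. For MTR4, the nuclear exosome helicase, they were 0.349 and 0.319, and for AVEN, given as a ratio, 0.294 and 0.295. Among the 38, Ctnnb1, which encodes beta-catenin, had the highest SKIV2L share at 0.528 and Gsk3b the lowest at 0.069. These values carry no replicate error.

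The other genes of the pathway were followed in the same fits. In 7E, 27 of the 80 tested were called higher at day 4 and 15 lower, beside 20.7% and 19.4% of all genes. Under ERCC scaling 4 were called higher and 63 lower, where 259 of all 16333 genes were called higher and 14717 lower. Of the ligands and their secretion factors, 10 of 14 were called higher and 0 lower, with a median of 1.00, on counts scaled within time points. The lists were chosen with earlier results of these data known, so counts over them are a description. Wnt7b rose by 1.94 ± 0.08 (SE, edgeR adjusted p = 2.7e-15), from 217 to 234 normalized counts in the day 0 libraries to 825 to 920 at day 4, and was still called higher under ERCC scaling (0.85), as were Wnt4 (1.91 ± 0.17, adjusted p = 3.7e-09) and Wls, the carrier that brings Wnt proteins to the surface (1.39 ± 0.08, adjusted p = 1.2e-12). In 5F 4 of 15 were called higher and 1 lower, beside 12.8% and 11.6% of all genes. There Wls rose by 0.53 ± 0.09 (edgeR adjusted p = 0.000175), Wnt5a by 0.69 ± 0.17 (0.00597) and Wnt7b by 0.33 ± 0.09 (0.0108), of which Wnt5a was not called without replicate 3 (0.52) and Wnt7b not without replicate 1 (0.20) or replicate 3 (0.32) or under ERCC scaling (0.26). Sfrp1, a secreted Wnt binder, fell by 0.83 in 7E at day 4 (SE 0.05, edgeR adjusted p = 6.9e-12), and rose by 0.19 ± 0.05 in 5F (adjusted p = 0.00541), where it was not called without replicate 3 (0.14) or under ERCC scaling (0.13).

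Among other genes described as direct Wnt targets, 5 of 15 were called higher and 2 lower in 7E, beside 20.7% and 19.4% of all genes. Ascl2, a factor of trophoblast and intestinal stem cells, rose by 1.64 ± 0.19 (edgeR adjusted p = 3.0e-07) and Msx2 by 1.34 ± 0.20 (adjusted p = 8.8e-06), and under ERCC scaling Ascl2 was still called (0.55) and Msx2 was not (0.24). Ccnd1, which encodes cyclin D1, fell by 0.67 (SE 0.05, edgeR adjusted p = 3.2e-11), and in 5F by 0.24 (SE 0.04, edgeR adjusted p = 0.000288), where 0 of 17 targets were called higher and 2 lower. At day 0, 11 of the 18 targets tested were called lower in 7E than in 5F and 1 higher, beside 18.1% of all genes in each direction, with Ascl2 at −1.15 ± 0.22 (edgeR adjusted p = 0.000196). Receptors moved both ways in 7E, with 5 of 18 higher and 5 lower, and the destruction complex list gave 5 higher and 6 lower of 18. The inhibitors gave 2 higher and 1 lower of 11 and the TCF and co-factor list 2 and 2 of 11. In 5F these 4 lists gave 4 and 0 of 18, 3 and 3 of 18, 2 and 1 of 10, and 3 and 1 of 11. Of all genes 12.8% were called higher and 11.6% lower in 5F. Decay differences were seldom called over all genes, so the few calls among the other pathway genes say little about them. In 5F 0 of 84 were called by edgeR or DESeq2. Of all genes there, edgeR called 0.134% slower and 0.067% faster. An unadjusted p under 0.05 came out for 2 of the 84, without a share of all genes at that looser threshold. In 7E Ccnd1 was called slower by 0.05 ± 0.01 log2 units per hour (edgeR adjusted p = 0.0163), 1 of 81, and DESeq2 called 2 slower and 1 faster. Among all genes edgeR called 0.436% slower and 0.551% faster in 7E. The Ccnd1 call did not hold under ERCC scaling (0.07), with every gene of at least 1 count tested (0.05), without the 360 min libraries (0.05), or without replicate 1 (0.05), replicate 2 (0.05) or replicate 3 (0.06). Between clones at day 0, 0 of 84 were called by either tool, beside 0.0338% and 0.00563% of all genes called slower and faster by edgeR. An unadjusted p under 0.05 came out for 6 of the 84. The share of all genes at that looser threshold is not given, so this number has nothing to be set against.

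**Figure D5:**
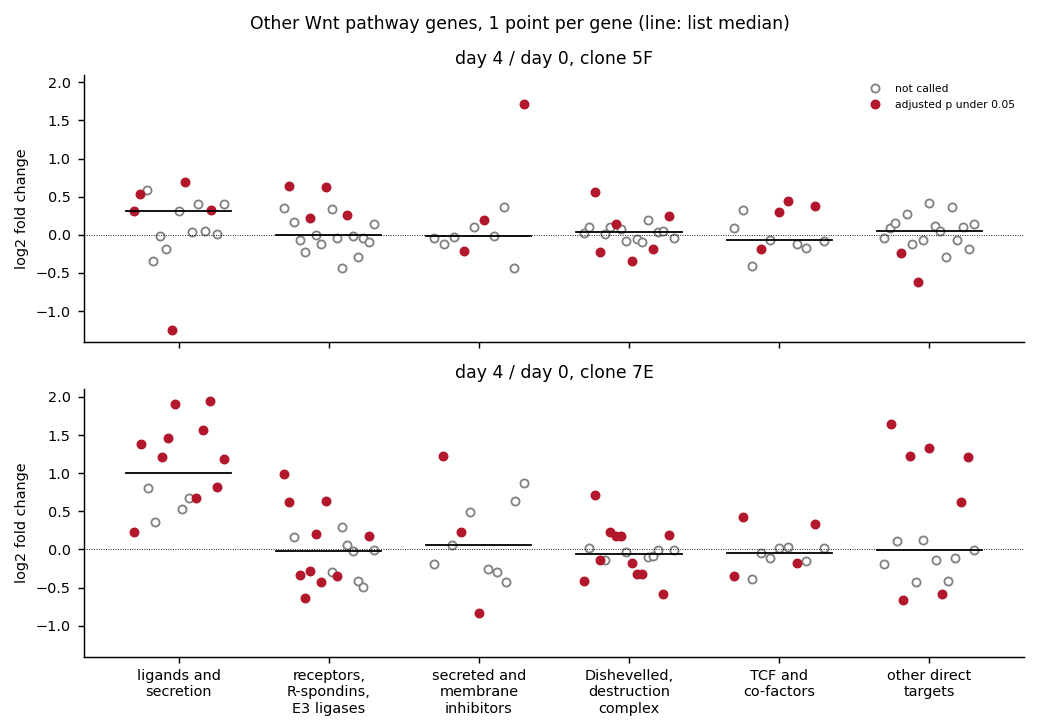
Log2 fold change at day 4 of every tested gene of the 6 other Wnt lists (1 point per gene, horizontal line at the list median, red for an adjusted p under 0.05) in clone 5F and clone 7E, on counts scaled within time points. The ligand list of clone 7E lies above 0 with a median of 1.00, while scaling by ERCC counts lowers all genes of that panel by about 1.10.

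Across the 12 mock libraries, the genes whose log2 levels ran most like those of a member, by Pearson r among 12263 genes with a mean of at least 50 counts, reached 0.937 to 0.989. For Lef1 they were Loxl2 (0.989), Gab1 (0.983) and Stmn2 (0.981). For Sp5 they were Agpat2 (0.975), Slc39a4 (0.960) and Abhd2 (0.956), and for Axin2 Sec61a1 (0.964), Fbp2 (0.963) and Tpbg (0.961). For Notum they were Xylt2 (0.959), Troap (0.952) and Ldb1 (0.937). Between the members themselves r was 0.78 for Axin2 and Lef1, 0.72 for Axin2 and Sp5, 0.24 for Sp5 and Lef1, and −0.18 to −0.65 for Notum with the others. The 12 points form 4 groups of 3 libraries, so these r values mostly follow the group means and are given without a p.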

How the data were processed

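Counts per gene were deposited by the authors for 47 half-life libraries: reads were aligned with STAR to GRCm38 with Gencode annotation and 92 ERCC sequences, and uniquely mapped reads were counted per gene, from a library kit (TruSeq v2) that does not mark strand. The deposited binding ratios (SKIV2L, XRN1, MTR4, AVEN) are the authors' pooled values. After the study's methods, libraries of the same time point were scaled to each other by DESeq2 size factors, and each time point by the share of RNA left, estimated from 34 ERCC sequences averaging 50 counts or more (65.7%, 53.8% and 44.1% of mock remaining at 120, 240 and 360 min). Half-lives came from ln(normalized count + 1) on time. Comparisons used the edgeR quasi-likelihood test (edgeR 4.0.16, R 4.3.3) on the counts with these offsets and filterByExpr, with Benjamini-Hochberg adjustment over all genes tested and a threshold of 0.05. Clone comparisons used all 12 mock libraries. Alternatives were TMM factors, each library's own ERCC counts, DESeq2 1.42.0, other filters, a replicate block, leaving out each replicate, and leaving out 360 min. The fits were tested on simulated data.

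The members and the gene lists were chosen with earlier results of these data known. Of each other Wnt list, up to 3 genes per direction with the largest difference among those called and with a mean of at least 50 counts could be named. Genes of lists outside this rule are given as counts, apart from the highest and lowest SKIV2L share and the genes flagged below. The smallest chi-square per gene between replicates was 2.59, so none was counted as a copy. No per-sample column went unused (0). Same-numbered mock libraries of the clones had correlated deviations of 0.15 to 0.37 in all 6 pairs, and those of day 0 and day 4 within a clone of −0.30 to −0.03. Over all groups of a clone such correlations ran from −0.69 to 0.52 in 5F and from −0.69 to 0.56 in 7E. Whether the numbers pair the libraries was not tested, and the main fits had no replicate term. Intervals and errors cover these libraries only, and 1 sample of the series whose labels disagree was not used.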

Additional observations from a re-analysis of the deposited data

Results flagged for a closer look

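The day 4 difference of the mock level differed between the clones (edgeR, adjusted p under 0.05 for the difference itself) for 25 Wnt genes. They are 2 of the 8 and, of 85 other Wnt genes tested, 13 with a larger and 10 with a smaller difference in 7E. Of all genes 6.65% were called for a larger and 5.29% for a smaller difference. Values are the 7E difference minus the 5F difference on the log2 scale. Among the ligands and their carrier it was 2.70 for Wnt3a, 1.62 for Wnt7b, 1.60 for Wnt4, 1.51 for Wnt7a, 1.39 for Wnt3, 0.86 for Wls and 0.79 for Wnt9a. Wnt3a had few reads, and went lower in 5F and higher in 7E. Among receptors it was 0.28 for Ryk, −0.27 for Fzd3, −0.31 for Fzd7, −0.31 for Lgr4, −0.50 for Fzd5 and −0.63 for Fzd9. Among inhibitors and destruction complex genes it was 1.35 for Dkk1, 0.44 for Kremen1, −0.44 for Amer1, −0.63 for Nkd2, −0.66 for Sfrp4 and −1.03 for Sfrp1. Among the other targets it was 1.55 for Ascl2, 0.92 for Msx2, 0.51 for Tnfrsf19 and −0.42 for Ccnd1. Axin2 (0.93) and Sp5 (0.97) were chosen with this contrast known, so their values are a description. With each library scaled by its own ERCC counts the median of all genes moved by −1.03, and 8 of the 25 changed sign: Ryk (−0.75), Kremen1 (−0.59), Tnfrsf19 (−0.52), Wnt9a (−0.24), Wls (−0.17), Msx2 (−0.10), Axin2 (−0.10) and Sp5 (−0.052).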

How the results depend on the processing

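Scaling each library by its own ERCC counts lowered the 7E day 4 levels of all genes together (median shift −1.10). The calls at an adjusted p of 0.05 then went from 6551 (3381 higher, 3170 lower) to 14976 (259 and 14717) for day 4 in 7E, from 6946 (3500 and 3446) to 16022 (73 and 15949) between clones at day 4, from 2055 (1145 and 910) to 14373 (54 and 14319) for the difference between the responses, from 3998 (2095 and 1903) to 3414 (1063 and 2351) for day 4 in 5F, and from 6231 (3112 and 3119) to 7842 (1574 and 6268) between clones at day 0. Decay calls went from 36 to 19 in 5F, from 172 to 105 in 7E and from 7 to 2 between clones, to 273 (7E) and 37 (clones) with DESeq2, and to 90 (7E) and 1 (clones) without 360 min; for these the cause was not tested. Leaving out 1 replicate in turn gave 1862 to 4399 calls for day 4 in 5F, 4320 to 5949 in 7E, 4089 to 5329 between clones at day 0, 753 to 1446 for the difference, and for decay 2 to 4, 30 to 56 and 0 to 1, with fewer libraries in each fit. Called log2 differences of the 8 genes and of the other Wnt genes chosen by the naming rule that changed sign under ERCC scaling were, for day 4 in 7E, Fzd1 −0.11, Fzd8 −0.47, Fzd10 −0.47, Kremen1 −0.87, Apc2 −0.38, Csnk1a1 −0.87, Tnks −0.91, Bcl9l −0.67, Tle3 −0.77, Axin2 −0.21, Lef1 −0.53 and Cdx2 −0.31. Between clones at day 4 they were Wnt7b −0.29, Wls −0.41, Wnt4 −0.56, Fzd1 −0.30, Fzd6 −0.45, Fzd10 −0.76, Kremen1 −0.99, Csnk1e −0.68, Tnks −0.92, Csnk1a1 −0.97, Tle3 −0.82, Bcl9l −0.83, Tle4 −1.07, Wnt3 −0.71, Tnfrsf19 −0.86 and Sp5 −0.74, and for the difference Ryk −0.75, Kremen1 −0.59, Msx2 −0.10, Axin2 −0.10 and Sp5 −0.052. With the replicate block the calls were 6044 between clones at day 0, 6790 at day 4 and 1930 for the difference. For day 4 against day 0 they were 2951 (5F) and 6012 (7E). The block changed no call of the 8 genes and ended those of Kremen1 and Csnk1d (5F) and Apcdd1 (clones at day 0). Of the 112 differences of other Wnt genes chosen by the naming rule, 52 kept their call under every alternative. ERCC scaling ended or reversed 40, leaving out replicate 1, 2 or 3 ended 28, 16 and 23, DESeq2 5 and the filter of at least 1 count 5. Nkd1, T, Cdx1 and Cdx2 averaged under 50 counts, which limits what could be called for them.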
